A study of Homo sapiens with 8 samples.

Results

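Depletion of GPX1, a glutathione peroxidase that reduces hydrogen peroxide, went with lower SPRY2, SPRY4, SPRED2, ETV4 and ETV5 in both of the breast cancer cell lines measured. DUSP1 and DUSP5 were slightly higher in both, a share of the set near that of all genes (2 of 10 beside 14.9%), and DESeq2 called DUSP1 in neither line and DUSP5 in HS578T alone. All of these belong to 10 genes chosen by symbol as feedback and output genes of the MAP kinase cascade. The genes, chosen with earlier results of these data known, are DUSP1, DUSP4, DUSP5, DUSP6, SPRY2, SPRY4, SPRED1, SPRED2, ETV4 and ETV5. They are 10 of the 23686 gene symbols listed for every library, and all 10 were among the 14249 genes that passed the filter on low counts. The largest fall among the 10 in each line was that of SPRY4 in HS578T, which was left at 33.9% of its control level, and of ETV4 in MDA-MB-231, which was left at 41.4% by TPM.

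In the MAP kinase cascade, growth factor receptors switch on RAS proteins, which pass the signal through RAF and MEK kinases to the kinase ERK. ERK then induces genes that hold it back: dual-specificity phosphatases (DUSPs) remove the activating phosphates from MAP kinases, while Sprouty (SPRY) and SPRED proteins act higher up, at the level of RAS and RAF. ETV4 and ETV5, transcription factors of the PEA3 group of the ETS family, are outputs of the same pathway, and several of these transcripts are used as readouts of ERK activity in tumour cells.

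The 8 RNA-seq libraries came from 2 established triple-negative breast cancer lines, with 2 libraries in each of 4 groups: HS578T given siGpx1, HS578T control, MDA-MB-231 given siGpx1 and MDA-MB-231 control. The titles name an siRNA against Gpx1, the genotype tag of the same libraries reads Gpx1-/-, and the nature of the control, the dose and the time are not given in the labels. GPX1 was at 9.52 and 9.02 TPM (a transcript level scaled to effective length and library total) in HS578T siGpx1 libraries, against 232 and 232 TPM in HS578T controls. In MDA-MB-231 it was at 21.8 and 20.4 TPM in siGpx1 libraries, against 594 and 634 TPM in controls. The depleted libraries therefore kept 3.99% and 3.43% of the control level in HS578T and MDA-MB-231, so they model a strong reduction of the transcript and not its loss.

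Library totals lay between 12905808 and 14216365 expected counts. Both lines are labelled epithelial, but HS578T had at most 0.22 TPM of EPCAM and at most 0.12 TPM of CDH1 in any library, and MDA-MB-231 had at most 1.11 TPM of CDH1 with EPCAM between 31.8 and 39.5 TPM. VIM, a mesenchymal marker, was between 6651 and 6781 TPM in HS578T siGpx1 libraries, 5823 and 5856 TPM in HS578T controls, 2768 and 2796 TPM in MDA-MB-231 siGpx1 libraries, and 2134 and 2201 TPM in MDA-MB-231 controls. Of 6 epithelial markers, 2 exceeded 1 TPM in HS578T and 4 in MDA-MB-231, and their summed level was higher after depletion in both lines, at 934 to 1032 TPM in HS578T siGpx1 libraries against 347 to 350.2 TPM in HS578T controls, and at 2747 to 2817 TPM in MDA-MB-231 siGpx1 libraries against 1741 to 1761 TPM in MDA-MB-231 controls. The summed level of 6 mesenchymal markers was also higher after depletion. It was 20400 to 22480 TPM in HS578T siGpx1 libraries against 17050 to 17310 TPM in HS578T controls. In MDA-MB-231 it was 3124 to 3161 TPM in siGpx1 libraries against 2441 to 2496 TPM in controls. Of these 6, ZEB1 had lower means in both lines and TWIST1 in HS578T. The epithelial rise in HS578T lay mostly in KRT18, at a mean of 949 TPM against 322 TPM. The part of these marker levels in the results that follow was not tested. In such bulk RNA, fewer cells of a kind and less RNA per cell cannot be told apart.

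The counts of changed genes give the scale for what follows. A gene was called at an adjusted p under 0.05 in edgeR's quasi-likelihood test, with the Benjamini-Hochberg method over all tested genes. Where siGpx1 and control libraries are said not to overlap, this is a description and not a test. With 2 libraries a group such separation also happens without a true difference. In HS578T, 6 of the 10 genes were lower after depletion and 2 were higher, beside 22.1% and 28.6% of all tested genes. In MDA-MB-231, 7 of the 10 were lower and 2 were higher, beside 21.9% and 20.7% of all tested genes. The median log2 change of the 10 genes was -0.48 in HS578T and -0.47 in MDA-MB-231, while that of all tested genes was 0.04 and 0. SPRY2, SPRY4, SPRED2, ETV4 and ETV5 were lower in both lines, 5 of 10 beside 14.3% of all genes. DUSP1 and DUSP5 were higher in both, 2 of 10 beside 14.9% of all genes. When the test asked for a change beyond 1.5-fold, 3 of the 10 were lower in HS578T (4.83% of all genes) and 1 in MDA-MB-231 (3.66%), and 0 were higher in either line, beside 3.61% of all genes in HS578T and 1.11% in MDA-MB-231.

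**Figure D1:**
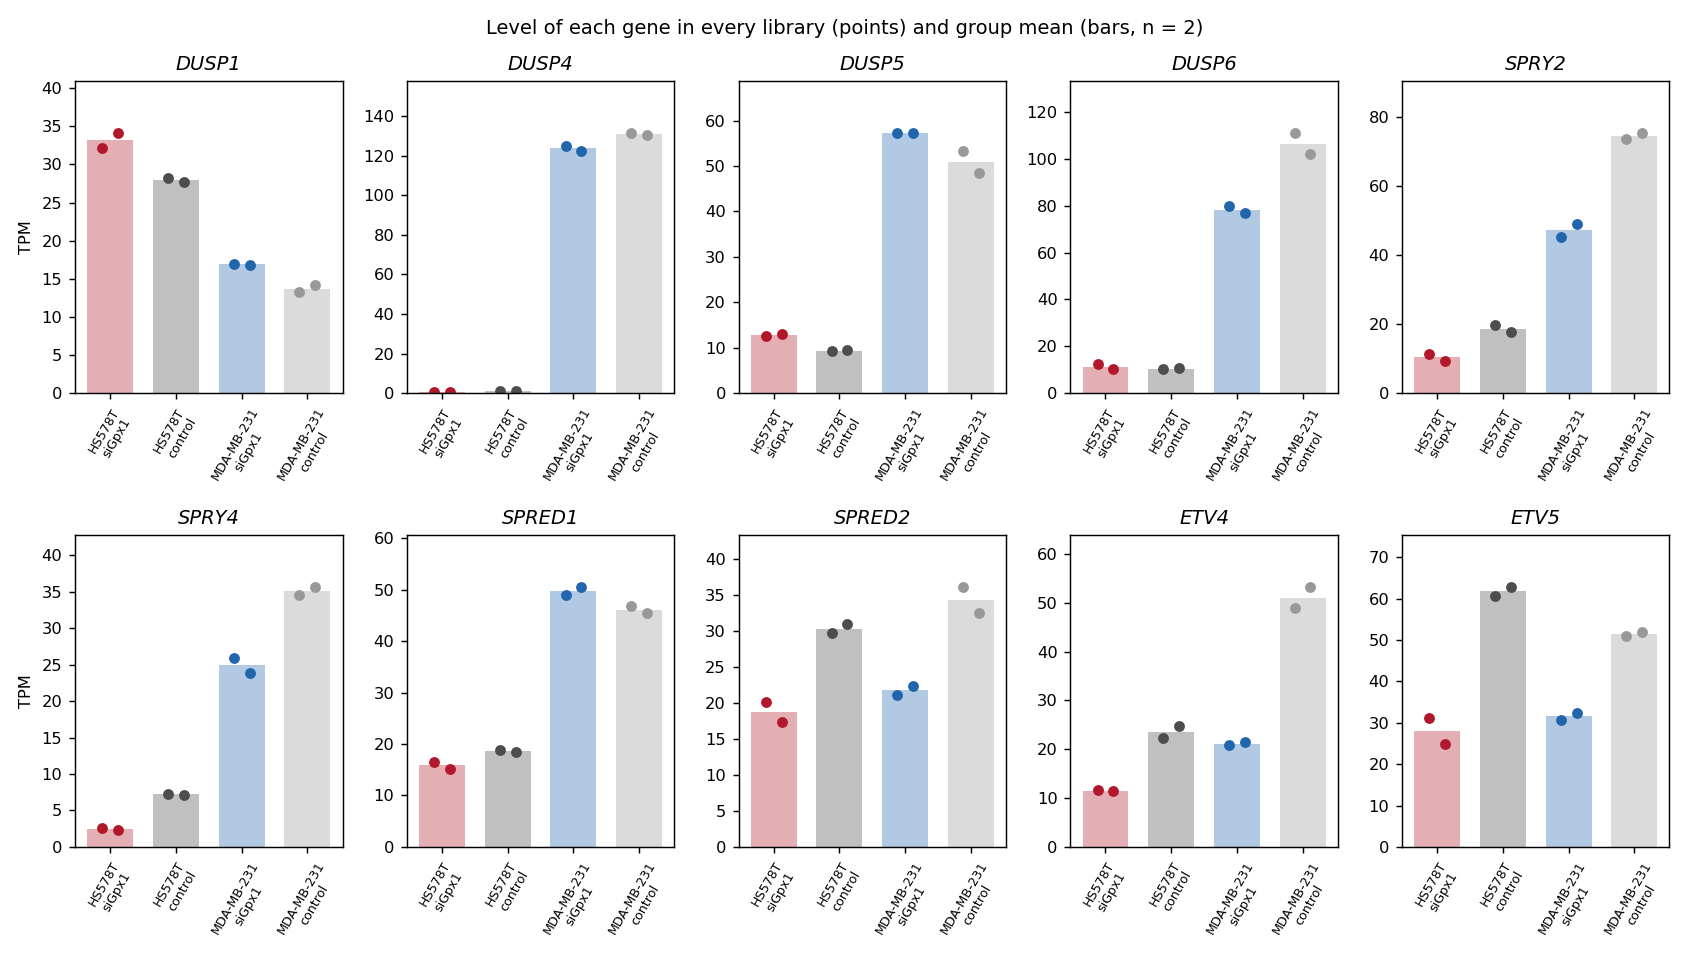
Level of each of the 10 genes in TPM (vertical axes, each starting at 0) in the 8 libraries, as points, with bars for the means of the 2 libraries of a group. In SPRY2, SPRY4, SPRED2, ETV4 and ETV5 the siGpx1 points lie below the control points of the same line, and DUSP4 is near 0 in HS578T and above 120 TPM in MDA-MB-231.

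Among the feedback inhibitors, both Sprouty genes fell in both lines. SPRY4, which binds RAF and receptor adaptors and restrains RAS activation, had 2.58 and 2.32 TPM in HS578T siGpx1 libraries, against 7.27 and 7.18 TPM in HS578T controls. In MDA-MB-231 it had 25.9 and 23.9 TPM in siGpx1 libraries, against 34.5 and 35.7 TPM in controls. No siGpx1 library reached the lowest control library of its line. The log2 change of SPRY4 was -1.51 ± 0.12 in HS578T (standard error, SE, n = 2 libraries a group; adjusted p = 3.91e-08, Benjamini-Hochberg, edgeR's quasi-likelihood test) and -0.50 ± 0.059 in MDA-MB-231 (adjusted p = 4.66e-06). In HS578T the fall also passed the test for a change beyond 1.5-fold (adjusted p = 4.67e-06).

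SPRY2, the family member best known for uncoupling receptor adaptors from RAS, had 11.3 and 9.42 TPM in HS578T siGpx1 libraries, against 19.6 and 17.8 TPM in HS578T controls. It had 45.2 and 49.1 TPM in MDA-MB-231 siGpx1 libraries, against 73.7 and 75.3 TPM in MDA-MB-231 controls. The siGpx1 and control libraries did not overlap in either line. SPRY2 fell by 0.80 ± 0.11 on the log2 scale in HS578T (adjusted p = 1.84e-05) and by 0.67 ± 0.065 in MDA-MB-231 (adjusted p = 6.01e-07, same test).

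SPRED2 and SPRED1 recruit the RAS-inactivating protein neurofibromin to the membrane, and they did not move alike. SPRED2 had 20.1 and 17.4 TPM in HS578T siGpx1 libraries, against 29.7 and 31.0 TPM in HS578T controls. In MDA-MB-231 it had 21.2 and 22.4 TPM in siGpx1 libraries, against 36.1 and 32.5 TPM in controls. Its fall was -0.64 ± 0.077 in HS578T (adjusted p = 4.24e-06) and -0.67 ± 0.073 in MDA-MB-231 (adjusted p = 2.19e-06), with no overlap between siGpx1 and control libraries.

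SPRED1 had 16.6 and 15.2 TPM in HS578T siGpx1 libraries, against 18.8 and 18.5 TPM in HS578T controls, a log2 change of -0.18 ± 0.057 (adjusted p = 0.0154). That call was lost without HS578T control replicate 1 (adjusted p = 0.0647) and without HS578T siGpx1 replicate 2 (adjusted p = 0.11). In MDA-MB-231 SPRED1 had 49.0 and 50.6 TPM in siGpx1 libraries, against 46.9 and 45.4 TPM in controls. There the difference of 0.10 ± 0.044 did not pass (adjusted p = 0.0774), with a 95% interval of 0.0078 to 0.20. It passed as higher under 6 of 19 other settings, among them DESeq2's size factors (0.14, adjusted p = 0.0191), the stricter filter (0.16, adjusted p = 0.00688) and MDA-MB-231 fitted alone (0.11, adjusted p = 0.0217). Without MDA-MB-231 siGpx1 replicate 1 it was 0.18 (adjusted p = 0.0489), and without MDA-MB-231 control replicate 1 it was 0.17 (adjusted p = 0.0605). The SPRED1 libraries of the 2 groups overlapped in neither line, and the small differences lay in opposite directions. With 2 libraries a group this separation settles no direction, and the MDA-MB-231 difference did not pass in the main fit.

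The 3′ untranslated regions (UTRs) were read for a pair of 7-base sequences, GGGCATC and GGCATCA, which earlier results on these data had picked out in genes with lower expression after depletion. Joined, they form GGGCATCA, which 3 of 4 annotated GPX1 transcripts hold. In GENCODE 29 gene models, SPRY4, ETV5 and DUSP4 held at least 1 of the pair, 3 of 10 genes beside 14.0% of the 13074 tested genes with a 3′ UTR, and none of the 10 held the whole sequence of 8 bases. SPRY2, SPRED2 and ETV4, which fell in both lines, held neither. The share of genes with a match among those of similar UTR length was 25.7% for SPRY4, 19.0% for ETV5 and 26.9% for DUSP4. For the rest of the 10 genes, which held no match, it ran from 7.81% (ETV4) to 35.1% (SPRED1). As the pair was picked from genes lower in these same data, the matches are not independent of the falls. The windows around the matches in SPRY4 (base 3329 of a UTR of 3782) and ETV5 (base 2079 of 2331) are shown because both genes fell and fell by different amounts in the 2 lines; capitals mark the match, build GRCh38, transcript strand. The part of these matches in the falls was not tested.
SPRY4, chr5:142310862-142310891, minus strand: acgattcactaGGGCATCctgcgagcctca
ETV5, chr3:186046542-186046571, minus strand: cataggacagcGGCATCAcggttgcattcc

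The output genes ETV4 and ETV5 fell in both lines. ETV4, a transcription factor linked to invasion downstream of ERK, had 11.6 and 11.4 TPM in HS578T siGpx1 libraries, against 22.3 and 24.8 TPM in HS578T controls. In MDA-MB-231 it had 20.9 and 21.4 TPM in siGpx1 libraries, against 48.9 and 53.3 TPM in controls. The siGpx1 libraries of ETV4 all lay below the controls of their line. ETV4 changed by -1.07 ± 0.099 in HS578T (adjusted p = 2.08e-07) and by -1.24 ± 0.076 in MDA-MB-231 (adjusted p = 3.21e-09), and in both lines the fall passed the test beyond 1.5-fold (HS578T, adjusted p = 0.000362; MDA-MB-231, 1.75e-06). ETV4 shares 68 exon bases with DHX8 on the opposite strand, and the strand of the libraries is not stated in the labels. DHX8 itself was at 0.01 ± 0.052 in HS578T and -0.071 ± 0.049 in MDA-MB-231, and passed in neither.

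ETV5, its close paralog, had 31.3 and 24.9 TPM in HS578T siGpx1 libraries, against 60.7 and 62.9 TPM in HS578T controls. In MDA-MB-231 it had 30.7 and 32.5 TPM in siGpx1 libraries, against 50.9 and 52.0 TPM in controls. The HS578T siGpx1 libraries differed from each other more than those of the other groups did, and still lay below both controls. ETV5 fell by 1.09 ± 0.077 in HS578T (adjusted p = 1.04e-08) and by 0.71 ± 0.076 in MDA-MB-231 (adjusted p = 1.67e-06). The HS578T fall passed beyond 1.5-fold (adjusted p = 2.24e-05). ETV5 shares 164 exon bases with DGKG on the same strand. DGKG had 126 to 165 counts in HS578T libraries and 0 in those of MDA-MB-231. In HS578T its change of -0.16 ± 0.14 did not pass (adjusted p = 0.394, edgeR's quasi-likelihood test). The part of this overlap in the ETV5 levels was not tested.

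**Figure D2:**
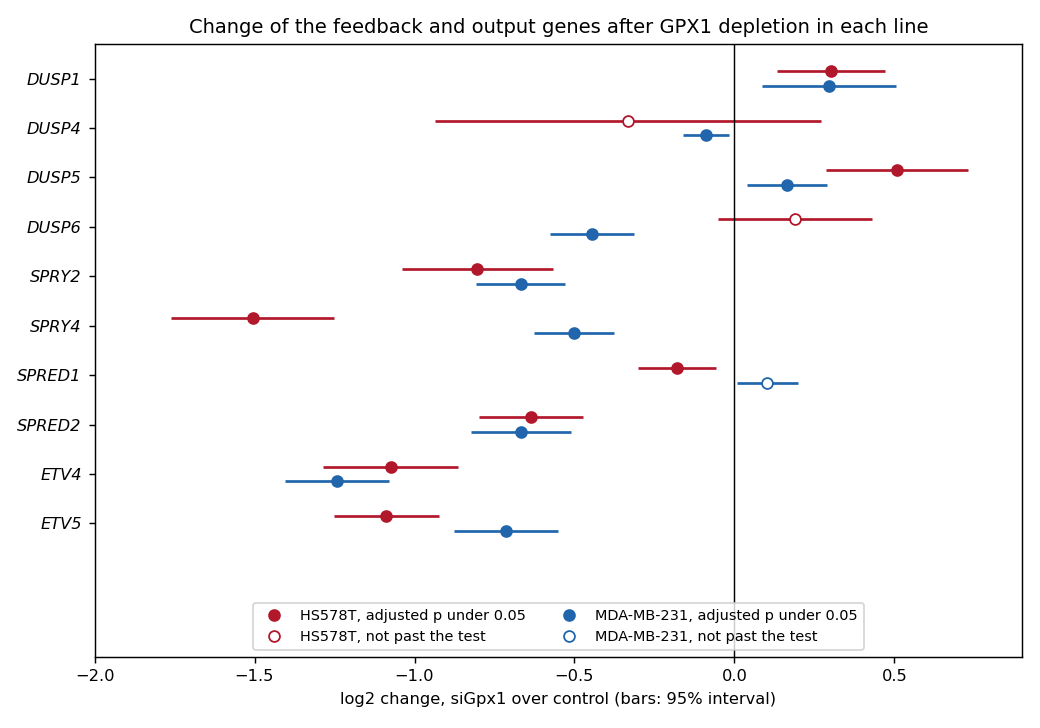
Log2 change, siGpx1 over control (horizontal axis), of each gene in HS578T (red) and MDA-MB-231 (blue), with 95% intervals as bars; filled points passed at an adjusted p under 0.05. SPRY4 is farthest left, at -1.51 in HS578T, and DUSP1 and DUSP5 are right of 0 in both lines.

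The phosphatases did not fall together. DUSP1, a nuclear phosphatase of ERK, JNK and p38 that many stresses induce, had 32.2 and 34.1 TPM in HS578T siGpx1 libraries, against 28.2 and 27.7 TPM in HS578T controls. It had 17.0 and 16.8 TPM in MDA-MB-231 siGpx1 libraries, against 13.2 and 14.2 TPM in MDA-MB-231 controls. All siGpx1 libraries of DUSP1 lay above the controls of their line. The rise was 0.30 ± 0.079 in HS578T (adjusted p = 0.00456) and 0.29 ± 0.098 in MDA-MB-231 (adjusted p = 0.0245), and DESeq2 called it in neither (adjusted p = 0.129 and 0.124). The calls were also lost without HS578T siGpx1 replicate 2 (adjusted p = 0.0529), and without MDA-MB-231 control replicate 1 (adjusted p = 0.0824) or MDA-MB-231 siGpx1 replicate 1 (adjusted p = 0.0551).

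DUSP5, a nuclear phosphatase specific to ERK, had 12.6 and 13.1 TPM in HS578T siGpx1 libraries, against 9.18 and 9.59 TPM in HS578T controls. In MDA-MB-231 it had 57.2 and 57.2 TPM in siGpx1 libraries, against 53.2 and 48.5 TPM in controls. Again no siGpx1 library overlapped the controls of its line. DUSP5 rose by 0.51 ± 0.10 in HS578T (adjusted p = 0.000736) and by 0.16 ± 0.058 in MDA-MB-231 (adjusted p = 0.0333). The MDA-MB-231 rise was not called by DESeq2 (adjusted p = 0.181), nor without MDA-MB-231 control replicate 2 (adjusted p = 0.0947) or HS578T control replicate 2 (adjusted p = 0.0598). Without MDA-MB-231 control replicate 1 it was 0.27 (adjusted p = 0.00706).

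DUSP6, the cytoplasmic ERK phosphatase most often used as a readout of the pathway, had 12.3 and 10.2 TPM in HS578T siGpx1 libraries, against 10.3 and 10.6 TPM in HS578T controls. These libraries overlapped, and the difference of 0.19 ± 0.11 did not pass (95% interval -0.052 to 0.43, adjusted p = 0.183). In MDA-MB-231 DUSP6 had 79.9 and 76.9 TPM in siGpx1 libraries, against 111 and 102 TPM in controls. There it fell by 0.45 ± 0.062 (adjusted p = 2.53e-05). In GENCODE 29, DUSP6 shares 1875 exon bases with AC024909.2 on the opposite strand, a gene that was not analysed here.

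DUSP4, a nuclear phosphatase of ERK and JNK, was nearly silent in HS578T, with 0.64 and 0.77 TPM in siGpx1 libraries, against 0.91 and 0.94 TPM in controls. Those levels rest on 18 to 28 expected counts a library, and the difference of -0.33 ± 0.28 did not pass (95% interval -0.94 to 0.27, adjusted p = 0.355). Limma on log2(TPM + 0.1), with no count model, called it lower at -0.35 (adjusted p = 0.0215). In MDA-MB-231 DUSP4 had 125 and 123 TPM in siGpx1 libraries, against 132 and 130.4 TPM in controls. The change there was -0.088 ± 0.034 (adjusted p = 0.0487), and it no longer passed under 14 of 19 other settings, with adjusted p = 0.603 by DESeq2 and adjusted p between 0.512 and 0.744 without any 1 of the MDA-MB-231 libraries.

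Windows of 300 bases around annotated starts were in the RefSeq table (GRCh38.p14) for DUSP1, DUSP6, SPRY2, SPRY4, SPRED1 and SPRED2, with 9 windows in all. They were searched on both strands for CCGGAAG (an ETS core), TGANTCA (an AP-1 site), TGACGTCA (a cAMP response element) and the CArG box bound by serum response factor. CCGGAAG was in 0 of 9 windows, beside 16.0% of the windows of tested genes and 10.3% of all windows, and the CArG box was in 0 of 9, beside 1.15% and 1.29%. TGACGTCA was in 1 of 9, beside 2.65% and 1.85%, at -125 to -118 from the start of DUSP1. TGANTCA was in 1 of 9, beside 5.55% and 7.71%, with matches at -6 to 0 and 34 to 40 in the second start of SPRED2. These 2 windows are printed because they hold the matches, and because DUSP1 rose and SPRED2 fell in both lines; capitals mark the matches, which describe letters and not binding.
DUSP1, chr5:172771146-172771445, minus strand: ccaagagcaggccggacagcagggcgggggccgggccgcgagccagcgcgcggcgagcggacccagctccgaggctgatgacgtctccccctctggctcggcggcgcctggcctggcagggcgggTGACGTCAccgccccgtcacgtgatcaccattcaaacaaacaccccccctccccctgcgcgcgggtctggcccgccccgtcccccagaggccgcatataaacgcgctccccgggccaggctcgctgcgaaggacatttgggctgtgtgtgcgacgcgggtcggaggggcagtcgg
SPRED2, second start, chr2:65366729-65367028, minus strand: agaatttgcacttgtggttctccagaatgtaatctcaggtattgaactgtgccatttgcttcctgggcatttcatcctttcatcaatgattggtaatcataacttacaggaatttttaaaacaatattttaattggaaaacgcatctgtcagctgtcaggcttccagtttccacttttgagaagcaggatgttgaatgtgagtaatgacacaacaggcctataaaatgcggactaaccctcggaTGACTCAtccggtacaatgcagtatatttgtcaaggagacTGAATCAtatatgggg

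The question whether the response differed between the lines was put to the difference of the log2 changes, MDA-MB-231 minus HS578T, in the same fit. It passed for 4 of the 10 genes: 3 were higher, beside 6.32% of all tested genes, and 1 was lower, beside 10.7%. Over all genes that split of 900 higher and 1528 lower was 1251 higher and 1000 lower with DESeq2's size factors. With the stricter filter, which changes the genes tested as well as the scaling, it was 1684 higher and 797 lower. SPRY4 fell less in MDA-MB-231 than in HS578T, by a difference of 1.0 ± 0.14 (adjusted p = 0.000118). ETV5 also fell less there, with a difference of 0.37 ± 0.11 (adjusted p = 0.028). The ETV5 call was lost without HS578T siGpx1 replicate 2, where the difference was 0.24 (adjusted p = 0.0722), without HS578T control replicate 2 (adjusted p = 0.0644) and without MDA-MB-231 siGpx1 replicate 2 (adjusted p = 0.0528), and by limma on TPM. SPRED1 differed by 0.28 ± 0.072 (adjusted p = 0.014) and DUSP6 by -0.63 ± 0.13 (adjusted p = 0.00314). For SPRED1 and DUSP6, leaving out single libraries kept the call, with the highest adjusted p at 0.0499 for SPRED1 and 0.0308 for DUSP6.

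For the other 6 genes the difference between the lines did not pass, and the 95% intervals show how much room that leaves. The difference was -0.17 for ETV4 (-0.44 to 0.11), -0.031 for SPRED2 (-0.26 to 0.19) and 0.24 for DUSP4 (-0.36 to 0.85). For SPRY2 it was 0.14 ± 0.13 (adjusted p = 0.543), for DUSP1 -0.01 ± 0.13 (adjusted p = 1.0) and for DUSP5 -0.34 ± 0.12 (adjusted p = 0.0626).

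The control levels of these genes also differed between the lines. Of the 10 genes, 7 were higher in MDA-MB-231 controls than in HS578T controls, beside 43% of all tested genes, and 2 were lower, beside 38.6%. DUSP4 was 129-fold higher in MDA-MB-231 controls (log2 difference 7.01 ± 0.072, adjusted p = 2.2e-19) and DUSP6 9.39-fold higher (3.23 ± 0.082, adjusted p = 5.65e-15). DUSP5 (2.30 ± 0.080), SPRY4 (2.15 ± 0.072), SPRY2 (1.85 ± 0.077), SPRED1 (1.17 ± 0.050) and ETV4 (0.90 ± 0.075) were higher as well, with adjusted p of at most 1.54e-08. DUSP1 was lower in MDA-MB-231 controls (-1.16 ± 0.090, adjusted p = 6.43e-09), and so was ETV5 (-0.40 ± 0.071, adjusted p = 8.98e-05). SPRED2 was at 0.059 ± 0.070 and did not pass (adjusted p = 0.439). The summed level of the 10 genes was 472 and 473 TPM in MDA-MB-231 siGpx1 libraries, against 600.0 and 589 TPM in MDA-MB-231 controls, and 151 and 139 TPM in HS578T siGpx1 libraries, against 207 and 211 TPM in HS578T controls.

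The order of the levels, in mean TPM per group, was led by different genes in each line. In HS578T siGpx1 libraries it was DUSP1 (33.1), ETV5 (28.1), SPRED2 (18.7), SPRED1 (15.9), DUSP5 (12.8), ETV4 (11.5), DUSP6 (11.2), SPRY2 (10.4), SPRY4 (2.45) and DUSP4 (0.705), and there ETV4 and DUSP6, and DUSP6 and SPRY2, overlapped in their libraries. HS578T controls were led by ETV5 (61.8), SPRED2 (30.3) and DUSP1 (27.9), ahead of ETV4, SPRY2, SPRED1, DUSP6, DUSP5, SPRY4 and DUSP4, with SPRY2 and SPRED1 overlapping. In MDA-MB-231 siGpx1 libraries DUSP4 (124), DUSP6 (78.4) and DUSP5 (57.2) came before SPRED1, SPRY2, ETV5, SPRY4, SPRED2, ETV4 and DUSP1, and the pairs SPRED1 and SPRY2, and SPRED2 and ETV4, overlapped. MDA-MB-231 controls had DUSP4 (131), DUSP6 (107) and SPRY2 (74.5) before ETV5, ETV4, DUSP5, SPRED1, SPRY4, SPRED2 and DUSP1. In these controls ETV5, ETV4 and DUSP5 overlapped as neighbours, as did SPRY4 and SPRED2. ETV5, first in HS578T controls, was thus second in HS578T siGpx1 libraries, and DUSP1 took the first place.

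Ratios of TPM between family members within a library show the unequal changes without reference to other genes. SPRY4 over SPRY2 was 0.228 and 0.246 in HS578T siGpx1 libraries, against 0.370 and 0.403 in HS578T controls, and 0.574 and 0.487 in MDA-MB-231 siGpx1 libraries, against 0.468 and 0.473 in MDA-MB-231 controls. SPRED2 over SPRED1 was lower after depletion in both lines, at 1.21 and 1.15 in HS578T siGpx1 libraries against 1.58 and 1.67 in HS578T controls, and at 0.432 and 0.443 in MDA-MB-231 siGpx1 libraries against 0.772 and 0.716 in MDA-MB-231 controls. ETV4 over ETV5 was 0.369 and 0.459 in HS578T siGpx1 libraries, which overlapped the 0.367 and 0.394 of HS578T controls. In MDA-MB-231 that ratio was 0.681 and 0.660 in siGpx1 libraries, against 0.960 and 1.02 in controls. DUSP6 over DUSP5, both acting on ERK, was 0.974 and 0.776 in HS578T siGpx1 libraries against 1.12 and 1.11 in HS578T controls, and 1.40 and 1.34 in MDA-MB-231 siGpx1 libraries against 2.09 and 2.11 in MDA-MB-231 controls. With 2 libraries a group these ratios are descriptions and were not tested.

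**Figure D3:**
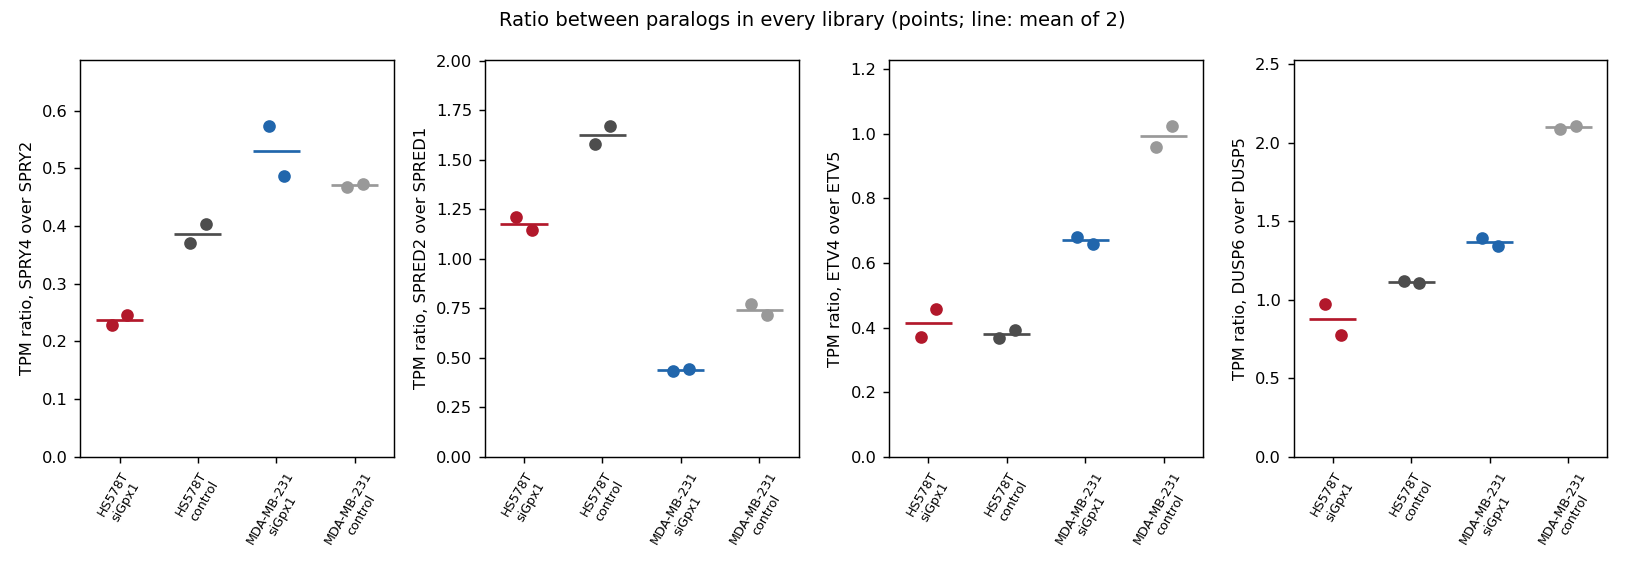
Ratio of TPM between 2 family members (vertical axes, starting at 0) in each library, as points, with a line at the mean of the 2 libraries of a group. SPRED2 over SPRED1 and DUSP6 over DUSP5 lie lower in siGpx1 libraries of both lines, while SPRY4 over SPRY2 lies lower in HS578T siGpx1 libraries and higher in MDA-MB-231 siGpx1 libraries than in controls.

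Near relatives of the 10 genes did not all follow them. Of 3 other Sprouty and SPRED genes, SPRED3 fell in both lines, by 0.86 ± 0.16 in HS578T (adjusted p = 0.000298) and by 2.19 ± 0.18 in MDA-MB-231 (adjusted p = 1.06e-07). Its mean level was 1.38 TPM in MDA-MB-231 siGpx1 libraries, against 6.25 TPM in MDA-MB-231 controls. SPRY1 rose in HS578T by 0.52 ± 0.12 (adjusted p = 0.00147) and fell in MDA-MB-231 by 0.35 ± 0.13 (adjusted p = 0.0383), and SPRY3 passed in neither line, at levels of at most 0.49 TPM. Of 5 other MAP kinase phosphatases tested, 2 were higher and 0 lower in HS578T, and 1 higher and 0 lower in MDA-MB-231. Among all tested genes, 28.6% were higher and 22.1% lower for the HS578T comparison. The MDA-MB-231 shares were 20.7% higher and 21.9% lower. The counts of this short list were not tested against those shares. DUSP8, a phosphatase of JNK and p38, rose by 1.10 ± 0.22 in HS578T (adjusted p = 0.000714) and by 1.11 ± 0.39 in MDA-MB-231 (adjusted p = 0.0313), from low levels: its mean was 0.895 TPM in MDA-MB-231 siGpx1 libraries, against 0.405 TPM in MDA-MB-231 controls. DUSP16 rose in HS578T by 0.70 ± 0.12 (adjusted p = 0.000152) and was at 0.20 ± 0.086 in MDA-MB-231, which did not pass (adjusted p = 0.0748). The median log2 change of the 5 phosphatases was 0.23 in HS578T and 0.20 in MDA-MB-231, and that of the 3 Sprouty and SPRED genes was -0.47 and -0.35.

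Other genes that ERK induces went in both directions, with more of them lower than higher in each line. Of 17 tested, 8 were lower and 5 higher in HS578T, with a median of -0.59 once the 2 genes at or under 3 counts in both groups were left out, and 9 were lower and 2 higher in MDA-MB-231, with a median of -0.30. For all tested genes the HS578T shares were 22.1% lower and 28.6% higher, while the MDA-MB-231 shares were 21.9% lower and 20.7% higher. SPRY1, and DUSP2 of the 5 other phosphatases, are also among these 17 ERK output genes. FOSL1, a subunit of AP-1 that ERK stabilises, fell by 1.35 ± 0.053 in HS578T (adjusted p = 1.12e-11), with a mean of 115 TPM in siGpx1 libraries against 304 TPM in controls, while its means in MDA-MB-231 were 594 TPM in siGpx1 libraries and 590.5 TPM in controls. The receptor kinase EPHA2 fell in both lines, by 1.03 ± 0.043 in HS578T (adjusted p = 2.37e-11) and by 0.30 ± 0.037 in MDA-MB-231 (adjusted p = 6.07e-06). The stress-response gene IER3 rose by 1.01 ± 0.040 in HS578T (adjusted p = 1.35e-11) and was at -0.12 ± 0.038 in MDA-MB-231 (adjusted p = 0.0198). HBEGF, an EGFR ligand, fell by 0.77 ± 0.12 in HS578T (adjusted p = 7.35e-05) and by 0.65 ± 0.072 in MDA-MB-231 (adjusted p = 2.54e-06). The cytokine LIF also fell in both, by 0.36 ± 0.068 in HS578T (adjusted p = 0.000334) and by 0.70 ± 0.067 in MDA-MB-231 (adjusted p = 4.86e-07). EPHA4, another receptor kinase, rose in both, by 0.42 ± 0.055 in HS578T (adjusted p = 1.05e-05) and by 0.86 ± 0.081 in MDA-MB-231 (adjusted p = 4.6e-07). The EGFR ligand EREG fell by 0.76 ± 0.062 in MDA-MB-231 (adjusted p = 1.65e-07) and had at most 1 count in any HS578T library. Differences between the lines in these genes are not described here.

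Genes for the proteins of the cascade itself split about evenly. Of 23 tested, 6 were higher and 5 lower in HS578T, with a median log2 change of 0.03, and 5 were higher and 5 lower in MDA-MB-231, with a median of 0.0020. These counts lay near the shares of all tested genes. Those shares were 28.6% higher and 22.1% lower for HS578T, beside 20.7% higher and 21.9% lower for MDA-MB-231. MAP2K1, which encodes the ERK-activating kinase MEK1, fell in both lines. Its mean was 30.3 TPM in HS578T siGpx1 libraries against 51.1 TPM in HS578T controls, a change of -0.70 ± 0.068 (adjusted p = 3.83e-07). In MDA-MB-231 it was 49.7 TPM in siGpx1 libraries against 94.1 TPM in controls, a change of -0.93 ± 0.059 (adjusted p = 4.7e-09). The adaptor SHC1 fell by 0.48 ± 0.037 in HS578T (adjusted p = 2.86e-08) and by 0.45 ± 0.038 in MDA-MB-231 (adjusted p = 1.35e-07). RASA1, which switches RAS off, rose by 0.67 ± 0.055 in HS578T (adjusted p = 5.35e-08) and by 0.40 ± 0.046 in MDA-MB-231 (adjusted p = 3.61e-06). MAP2K2, which encodes MEK2, rose by 0.48 ± 0.062 in HS578T (adjusted p = 9.09e-06) and by 0.27 ± 0.060 in MDA-MB-231 (adjusted p = 0.00159). The RAS activator SOS1 fell by 0.44 ± 0.065 in HS578T (adjusted p = 3.27e-05) and by 0.82 ± 0.064 in MDA-MB-231 (adjusted p = 5.61e-08).

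**Figure D4:**
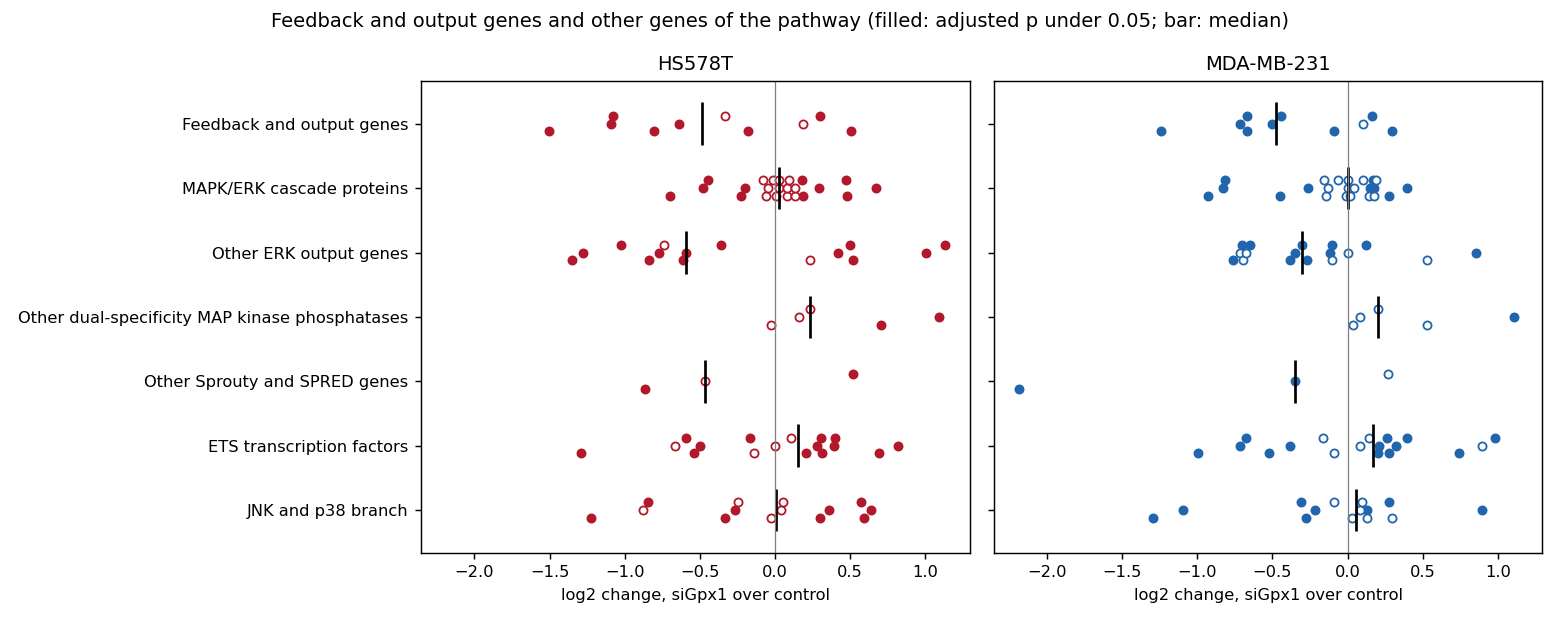
Log2 change, siGpx1 over control (horizontal axes), of the 10 feedback and output genes and of 6 lists of related genes in HS578T (left) and MDA-MB-231 (right); filled points passed at an adjusted p under 0.05, black bars are medians, and genes at or under 3 counts in a group are not drawn. The median of the 10 genes is -0.48 in HS578T and -0.47 in MDA-MB-231, and that of the 23 cascade proteins is 0.03 and 0.0020.

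Genes with the most similar profile over the 8 libraries were looked up for DUSP6 and ETV5 among 10660 tested genes. The measure was the Pearson correlation of log2 CPM (counts scaled to the library total, adjusted as in the main fit). For DUSP6 these were XKR8 (0.9995), SLC43A3 (0.999), PAXIP1 (0.999), EREG (0.999) and YIPF6 (0.998). XKR8 and EREG had at most 1 count in any HS578T library, so their correlation with DUSP6 is set by that floor against the MDA-MB-231 levels and says little about likeness. For ETV5 they were CYBASC3 (0.992), OSTC (0.991), ZMIZ1 (0.991), CTSZ (0.990) and EML2 (0.989). The points fall into 2 lines and share libraries, so these values describe likeness over 4 groups only, and for DUSP6 the difference between the lines is the largest part of the profile.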

How the data were processed

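Total RNA of 8 libraries, 2 for each of 4 groups, was extracted with a Qiagen RNeasy mini kit, per the labels' protocols. Expected counts per gene were deposited by the authors, made with RSEM 1.2.12 on build hg19, with FastQC for read quality, per the submitters' processing notes. TPM values, per the file headers, come from the same estimates, scaled by effective length to a fixed total. The aligner, trimming and strand are not named in the labels or file headers. RSEM shares out reads that match several genes; all 80 of the 80 counts of the 10 genes were whole (tolerance 0.005).

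Here the expected counts were rounded, filtered with edgeR 4.0.16 (filterByExpr over 4 groups, 14249 genes left), scaled by TMM and tested with edgeR's quasi-likelihood test, a mean per group, in a single fit of all 8 libraries with 4 residual degrees of freedom. P-values were adjusted by Benjamini-Hochberg over all 14249 genes. Standard errors and 95% intervals follow from the test's p and its total degrees of freedom. That total is above 4, as the test borrows information on the spread across genes. Alternatives were DESeq2 1.42.0, its size factors in edgeR, limma 3.58.1 (voom, and log2(TPM + 1) or log2(TPM + 0.1)), no filter, a filter of 5 CPM in 2 libraries, each line alone, a replicate block, a test beyond 1.5-fold, and each library left out (R 4.3.3). The code was tested on simulated data.

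Nothing in the labels says that the 2 libraries of a group came from separate cultures, so p-values measure only how these libraries scatter, possibly for technical reasons alone. The source label counts the HS578T name upward from library to library while the cell line tag does not; groups were taken from the titles. Over all genes with enough counts, no pair of libraries agreed within sampling noise, with a mean chi-square per gene between 1.35 and 3.91. For the 10 genes that mean was 2.11 in HS578T siGpx1 libraries and 0.33 in HS578T controls. In MDA-MB-231 it was 0.89 in siGpx1 libraries and 1.71 in controls. The 10 genes and all lists were chosen with earlier results of these data known. Named are all 10 genes, GPX1, up to 4 genes per list and line by smallest p, and the 5 genes most like DUSP6 and ETV5; not every gene named by this rule is reported here. Sequences come from RefSeq (GRCh38.p14 promoters) and GENCODE 29 (GRCh38), a later build than the files.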

Additional observations from a re-analysis of the deposited data

Results flagged for a closer look

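The change after GPX1 depletion differed between the lines for 4 of the 10 genes by the test of the difference itself, MDA-MB-231 minus HS578T (edgeR's quasi-likelihood test, Benjamini-Hochberg). The difference was 1.0 for SPRY4 (adjusted p = 0.000118), which was lower after depletion in each line, and more so in HS578T. It was 0.37 for ETV5 (adjusted p = 0.028), which was also lower in every siGpx1 library than in the controls of its line. The ETV5 difference ranged over 0.24 to 0.55 with single libraries left out. Limma on log2(TPM + 1) did not call it (0.43, adjusted p = 0.0622). The difference between the lines was 0.28 for SPRED1 (adjusted p = 0.014). Its siGpx1 libraries lay above controls in MDA-MB-231 (not called there) and below them in HS578T. For DUSP6 the difference was -0.63 (adjusted p = 0.00314): it fell in MDA-MB-231, while its HS578T libraries overlapped.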

How the results depend on the processing

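SPRY2, SPRY4, SPRED2, ETV4 and ETV5 kept their fall in both lines under every alternative; SPRY4, ETV4 and ETV5 in HS578T and ETV4 in MDA-MB-231 passed in all, and the others in all but the test beyond 1.5-fold. Beyond 1.5-fold, 3 genes were lower and 0 higher in HS578T, 1 lower and 0 higher in MDA-MB-231, 0 differed between the lines in either direction, and 1 was lower in MDA-MB-231 controls than in HS578T controls (also 1 by limma on log2(TPM + 1) without a filter). DESeq2 called 1 gene higher in HS578T and 0 in MDA-MB-231, and limma on TPM called 1 higher in MDA-MB-231 with either pseudocount or no filter. Leaving out single libraries gave 1 to 2 genes higher in HS578T and 1 to 3 in MDA-MB-231. Small differences between the lines changed sign: DUSP1 was at 0.051 with DESeq2's size factors, 0.052 by DESeq2, 0.0072 without a filter, 0.096 with the stricter filter, 0.046 and 0.055 by limma on TPM with pseudocounts 1 and 0.1 (0.046 without a filter) and -0.042 to 0.15 with single libraries left out. SPRED2 was at 0.0273 with DESeq2's size factors, 0.0272 by DESeq2, 0.072 with the stricter filter, 0.039 and 0.044 by limma on TPM (0.039 without a filter) and -0.11 to 0.13 with single libraries left out, and ETV4 ranged over -0.17 to 0.0023. SPRED2 between the controls was at -0.014 with the stricter filter and -0.047 to 0.079 with single libraries left out. The cause of these moves was not tested. Over all genes, counts of the difference between the lines (900 higher, 1528 lower as reported) were 1251 and 1000 with DESeq2's size factors, 707 and 508 by DESeq2, 1144 and 994 by limma on log2(TPM + 1), 1684 and 797 with the stricter filter, which moved their median by 0.10, and 21 and 70 beyond 1.5-fold; without MDA-MB-231 control replicate 2 they were 1107 and 535. In MDA-MB-231, 2950 were higher and 3116 lower as reported, 3652 and 2544 with the stricter filter, 2397 and 1925 by DESeq2 and 158 and 521 beyond 1.5-fold, and in HS578T 4074 and 3149 as reported and 515 and 688 beyond 1.5-fold. Same-numbered libraries did not deviate together (correlation -0.035 in HS578T and 0.055 in MDA-MB-231), and a replicate block left the counts of the 10 genes at 6 lower and 2 higher in HS578T and 7 lower and 2 higher in MDA-MB-231. DUSP4 in HS578T rests on 18 to 28 counts a library, and of 19 settings only limma on log2(TPM + 0.1) called it (-0.35, adjusted p = 0.0215).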

Other observations

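Other ETS factors, which bind the same core sequence as ETV4 and ETV5, were mixed in direction. Of 19 tested, 8 were higher and 5 lower in HS578T and 8 higher and 5 lower in MDA-MB-231. Their medians were 0.16 and 0.17 on the log2 scale. The shares of all tested genes were 28.6% higher and 22.1% lower for HS578T, beside 20.7% higher and 21.9% lower for MDA-MB-231. The counts were not tested against these shares. ETV1, the remaining PEA3 member and also 1 of the 17 other ERK output genes, fell by 0.59 ± 0.066 in HS578T (adjusted p = 1.86e-06) and by 0.38 ± 0.056 in MDA-MB-231 (adjusted p = 4.89e-05; edgeR's quasi-likelihood test, Benjamini-Hochberg). ELF4 fell by 1.29 ± 0.089 and 0.99 ± 0.083 in HS578T and MDA-MB-231, and ELK4, a partner of serum response factor, by 0.54 ± 0.076 and 0.52 ± 0.068. ETS2 rose by 0.82 ± 0.051 in HS578T and by 0.28 ± 0.051 in MDA-MB-231. The epithelial factor EHF rose by 0.98 ± 0.041 in MDA-MB-231 and was near the detection floor in HS578T, at a mean of 0.105 TPM in siGpx1 libraries and 0.055 TPM in controls.

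Of 14 tested genes of the JNK and p38 branch, 5 were higher and 4 lower in HS578T. In MDA-MB-231, 3 were higher and 5 lower, and the medians of the lines were 0.0081 and 0.05. These counts, too, were not tested against the shares of all genes given above. MAP2K3, an activator of p38, had a mean of 21.4 TPM in HS578T siGpx1 libraries against 52.0 TPM in HS578T controls, and 52.5 TPM in MDA-MB-231 siGpx1 libraries against 127 TPM in MDA-MB-231 controls. MAPKAPK2, a kinase that p38 activates, fell by 0.85 ± 0.046 in HS578T (adjusted p = 4.7e-10) and by 1.10 ± 0.043 in MDA-MB-231 (adjusted p = 2.04e-11). MAPK14 rose by 0.57 ± 0.050 in HS578T and by 0.13 ± 0.038 in MDA-MB-231, and MAPK9 fell by 0.33 ± 0.067 in HS578T and by 0.31 ± 0.060 in MDA-MB-231. JUN rose by 0.59 ± 0.040 in HS578T and was at 0.03 ± 0.039 in MDA-MB-231 (adjusted p = 0.622). MAPK13 fell by 0.27 ± 0.056 in MDA-MB-231 and was at -0.87 ± 0.42 in HS578T, which did not pass (adjusted p = 0.0967). Its HS578T means were near the detection floor, at 0.215 TPM in siGpx1 libraries and 0.41 TPM in controls.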
